A study of Mus musculus with 4 samples.

Results

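The miR-17 seed family was taken as the 5p arms of 6 mouse miRNA hairpins (mmu-miR-17-5p, mmu-miR-20a-5p, mmu-miR-20b-5p, mmu-miR-93-5p, mmu-miR-106a-5p and mmu-miR-106b-5p), out of 1966 mature miRNA listed in the count tables. They were chosen by name, because they share a seed, though earlier results of these data were known. Small RNA was sequenced from primary cortical neurons of mouse embryos, isolated at E16.5 by the sample labels and kept untreated for 5 days in vitro, with 2 WT and 2 TgAD libraries. TgAD (APP/PS1) neurons came from strain B6C3-Tg APPswe, PSEN1dE9 85Dbo/J, with transgenes for mouse/human APP that bears the Swedish mutations and for human presenilin 1 that lacks exon 9. Both are driven by the prion promoter of the mouse, so that expression is largely neuronal. Neurons of each embryo were cultured separately and genotyped afterwards, which makes each library a biological replicate by the study's definition.

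A miRNA recognizes mRNA mainly through its seed, bases 2 to 8 from its 5′ end, so that miRNA with 1 seed share most of their predicted targets. The members of the miR-17 family come from 3 clusters of miRNA genes that arose by duplication, those of miR-17, of miR-106b and of miR-106a. In dividing cells, neural progenitors among them, they are known to promote the passage from G1 to S phase by repressing inhibitors such as Cdkn1a and the retinoblastoma proteins, and E2F factors, which induce the clusters, are also among their targets. The comparison of WT with TgAD neurons asked which miRNA differ in level in neurons of a mouse model of Alzheimer's disease, in which neurons are thought to re-enter the cell cycle.

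The mature sequences are shown because the members differ from one another by few bases, so that assignment of reads between them rests on those bases. They are those of RefSeq (build GRCm38.p6), 5′ to 3′, with the seed in capitals.
miR-17-5p: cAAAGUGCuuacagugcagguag
miR-20a-5p: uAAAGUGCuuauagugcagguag
miR-20b-5p: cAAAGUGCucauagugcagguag
miR-93-5p: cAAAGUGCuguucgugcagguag
miR-106a-5p: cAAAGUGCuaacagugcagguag
miR-106b-5p: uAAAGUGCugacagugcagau
All 6 sequences had the seed AAAGUGC. Of the mature names in the RefSeq table, 7 had this seed, the 6 members and miR-6383, which had 0 reads in all 4 libraries. Outside the seed the members differed at the first base, at bases 10 to 13 and, in miR-106b-5p, at base 20. Counting positions from 1 at the 5′ end and giving the base of the first-named miRNA first, miR-17-5p and miR-106a-5p differed by U10A alone. miR-17-5p differed from miR-20a-5p by C1U and C12U, from miR-20b-5p by U10C and C12U, and from miR-93-5p by U10G, A11U, C12U and A13C. miR-106b-5p, with 21 nucleotides the shortest member, differed from miR-17-5p by C1U, U10G and G20A over the 21 bases compared. The authors mapped reads without mismatch, each mature sequence was annotated at 1 locus, and the longest run that any member shared with another annotated hairpin was 13 nucleotides, so a full-length read matched 1 member only.

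By GENCODE M21 (build GRCm38), the hairpins Mir17 (chromosome 14, 115043671 to 115043754, plus strand) and Mir20a (chromosome 14, 115044157 to 115044263, plus strand) lay in exon 2 of the long noncoding RNA gene Mir17hg. The hairpins Mir106b (chromosome 5, 138165737 to 138165818, minus strand) and Mir93 (chromosome 5, 138165523 to 138165610, minus strand) lay on the sense strand of Mcm7, which encodes a subunit of the replicative DNA helicase. Mir106b lay in intron 13 of 1 annotated Mcm7 transcript and in intron 8 of another, and Mir93 lay in the same introns and in exon 1 of 1 further transcript. The hairpins Mir20b (chromosome X, 52742113 to 52742192, minus strand) and Mir106a (chromosome X, 52742503 to 52742567, minus strand) lay within no annotated gene. The noncoding gene Kis2 (52742563 to 52744960), on the same minus strand, ends 371 bp from Mir20b, and its end overlaps the start of Mir106a.

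The 4 libraries held between 2070204 and 4811010 reads on miRNA, and 496 miRNA had enough reads to be tested. Levels are given in CPM, reads relative to the library size as scaled by edgeR's TMM method, and 3 reads, taken as the limit of detection, corresponded to between 0.746 and 1.28 CPM. These limits, and the intervals of shares below, cover counting error only. Libraries of 1 genotype differed by a median of 0.262 (WT) and 0.323 (TgAD) on the log2 scale, and libraries of different genotypes by 0.532 to 0.645. The labels were not free of conflict. In the deposited normalized table, the column named WT_1 held the counts of the library labelled TgAD replicate 1 for 674 of 674 miRNA. WT_2 held those of WT replicate 1 and TR_1 those of TgAD replicate 2, while TR_2 was equal to no count table. No column held the counts of WT replicate 2, so fits of that table by column name use another set of libraries. Groups below follow the sample labels. Of the markers of neurons, miR-9-5p, which is made from 3 loci, was at 0 in all 4 libraries and miR-124-3p had 1 to 7 reads, and how the authors counted reads with several placements is not known. miR-128-3p had 43009 to 240174 reads and was higher in TgAD neurons (log2 fold change 1.49), whereas miR-138-5p (-0.63, adjusted p = 0.226) and miR-218-5p (0.35, adjusted p = 0.521) had 2237 to 6560 reads and did not pass the test. The myeloid markers summed to between 9.96 and 14.7 CPM, with miR-142a-3p at 0, and the vascular markers to between 718 and 901 CPM, with miR-126a-3p at 0. Both oligodendrocyte markers were at 0 in every library. The summed level of 2 erythroid markers was 1310 and 1331 CPM in WT and 957 and 646 CPM in TgAD libraries. Of these, miR-451a, the 1 that could be tested, was past the cutoffs used below and lower in TgAD libraries (log2 fold change -0.72). The summed level of 2 astroglial markers was 18038 and 23299 CPM in WT and 15940 and 14766 CPM in TgAD libraries. Most of this sum was miR-21a-5p (log2 fold change -0.46), while miR-146a-5p, with 2090 to 4201 reads, was at 0.20. Neither passed the cutoffs. The part of other cell types in the results was not tested, and in these bulk samples fewer cells of a type and less RNA per cell cannot be told apart.

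Of the 5 members that could be tested, 1 was past the cutoffs used by the study, an absolute log2 fold change above 0.6 at an adjusted p below 0.1. Over all tested miRNA 33.1% were past these cutoffs, 17.3% in the lower and 15.7% in the higher direction. The member that changed was miR-106b-5p, which fell in TgAD neurons, while miR-17-5p, miR-20a-5p, miR-20b-5p and miR-93-5p did not pass the test. The median log2 fold change of the 5 members was -0.26, against 0.032 over all tested miRNA. miR-106a-5p, the remaining member, had too few reads to be tested.

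The WT libraries gave 7260 and 11590 reads of miR-106b-5p, the TgAD libraries 3063 and 3072. Scaled for library size, these were 3090 and 3981 CPM against 1116 and 764 CPM. Both TgAD libraries lay well under both WT libraries, as in 32.5% of the tested miRNA, although 1 of them was the most deeply sequenced of the 4. The mean level thus fell from 3535 ± 629.7 to 940.1 ± 249 CPM (SD over n = 2 per genotype), a decrease of 73.4%. On the log2 scale the change was -1.91 ± 0.265 (standard error, 95% interval -2.55 to -1.27), and edgeR's quasi-likelihood test gave an adjusted p = 0.00934 (Benjamini-Hochberg, over all tested miRNA). miR-106b-5p was also past the stringent cutoffs of a log2 fold change over 1 and an adjusted p under 0.01. So were 4.44% of all tested miRNA (3.02% in the lower direction), and 2.42% of the tested miRNA had a larger decrease. With RLE scaling miR-106b-5p missed the stringent cutoffs (adjusted p = 0.0108). With each library left out in turn, its log2 fold change was between -2.31 and -1.63 and its adjusted p between 5.27e-08 and 0.0176. The value of -2.31 is that without TgAD replicate 1. Under the other settings of the count tables, such as RLE scaling, DESeq2 or GC correction, it ranged from -2.14 to -1.64. When the reads were recovered from the normalized table and its columns taken by name, it was -1.23 and no longer past the cutoffs (adjusted p = 0.443), as 0 of the 480 miRNA tested in that table were, of which 54 had an unadjusted p under 0.05 in edgeR.

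**Figure D1:**
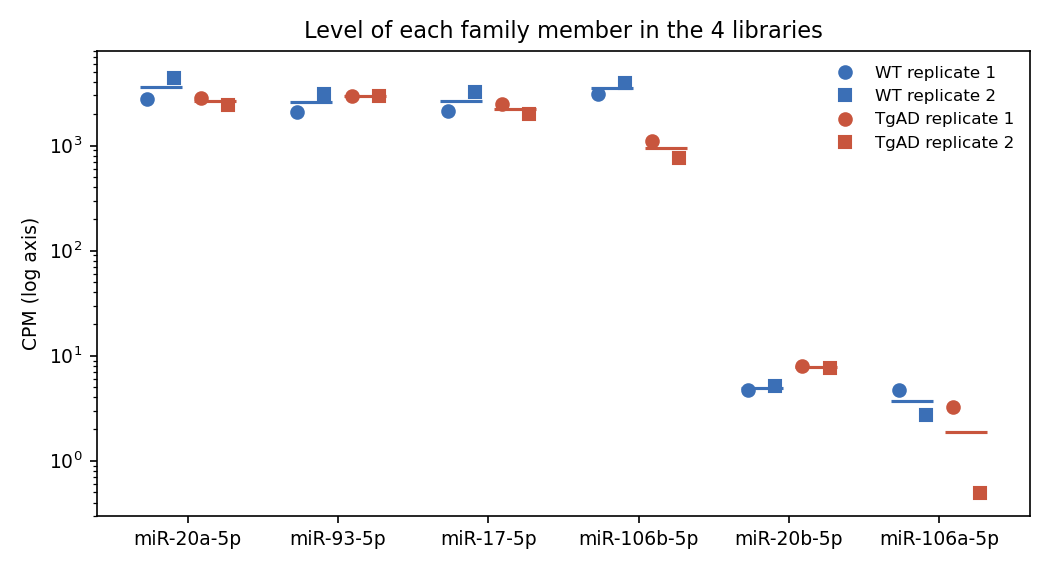
Level of each member in the 4 libraries, in CPM on a log axis, with WT in blue, TgAD in red, a circle for replicate 1, a square for replicate 2 and a line for the mean of each genotype. The TgAD libraries lie under the WT libraries for miR-106b-5p and over them for miR-20b-5p, and the libraries of the genotypes overlap for the other 4 members.

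miR-20a-5p is processed from the same transcript as miR-17-5p, and was read 6525 and 12771 times in WT and 7851 and 9837 times in TgAD neurons. At 2777 and 4386 CPM against 2861 and 2446 CPM, the genotypes overlapped. Its mean was 3582 ± 1138 CPM (WT) against 2654 ± 293.6 CPM (TgAD, SD over n = 2 per genotype), with a log2 fold change of -0.43 (95% interval -1.07 to 0.21, adjusted p = 0.297). The spread came mainly from the WT libraries, of which the second was the higher. With library sizes set to the total counts, a scaling that moves the median of all tested miRNA from 0.032 to -0.23, the log2 fold change of miR-20a-5p was -0.67 and passed the cutoffs (adjusted p = 0.0766). Without TgAD replicate 1 it was -0.65 (adjusted p = 0.237), and with the normalized table by column name -0.77 (adjusted p = 0.5997).

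miR-17-5p, the member after which the family is named, was read 4995 and 9427 times in WT and 6802 and 8046 times in TgAD neurons. In CPM these were 2126 and 3238 against 2479 and 2001, and the genotypes overlapped here too. The log2 fold change was -0.26 (95% interval -0.89 to 0.37, adjusted p = 0.503), and without WT replicate 2 it was 0.060. Without TgAD replicate 1 it was -0.52, and with the normalized table by column name -0.58 (adjusted p = 0.664). The data thus do not fix the direction of miR-17-5p, and its interval leaves room for a decrease of the size of the 0.6 cutoff.

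For miR-93-5p, the neighbour of miR-106b on chromosome 5, the reads were 4927 and 9015 (WT) against 8178 and 12059 (TgAD). In CPM these were 2097 and 3096 against 2980 and 2999, so that both TgAD libraries lay between the WT libraries. The log2 fold change was 0.20 (95% interval -0.37 to 0.78, adjusted p = 0.567). It turned to -0.048 with the total counts as library size, to -0.15 with a correction for GC content and to -0.036 without WT replicate 1. It was 0.11 without TgAD replicate 1 and -0.14 with the normalized table by column name.

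miR-20b-5p and miR-106a-5p, the members from chromosome X, had few reads, and miR-106a-5p was under the limit of detection in TgAD replicate 2. The reads of miR-20b-5p were 11 and 15 (WT) against 22 and 31 (TgAD). Both TgAD libraries, at 8.02 and 7.71 CPM, were above both WT libraries, at 4.68 and 5.15 CPM, as was the case for 30.6% of the tested miRNA. The log2 fold change of 0.67 did not pass the test (95% interval -0.22 to 1.55, adjusted p = 0.245), and was 0.54 without TgAD replicate 1 and -0.24 with the normalized table by column name. miR-106a-5p, at 11 and 8 (WT) against 9 and 2 (TgAD) reads, was removed by the filter on low counts. With no filter its log2 fold change was -1.09 (standard error 0.711, adjusted p = 0.445), which at this depth does not show a difference. For 2 against 2 libraries the smallest two-sided p of an exact permutation test is 0.333, so each test above rests on the spread that edgeR shares across miRNA.

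By level, the members fell into an abundant set of 4 and a rare pair from chromosome X. Among all listed miRNA ranked by their level, miR-20a-5p was at rank 37, miR-93-5p at 41, miR-17-5p at 49 and miR-106b-5p at 53, whereas miR-20b-5p was at 429 and miR-106a-5p at 518. Reads of mature miRNA cover the whole molecule, so CPM needs no correction for length. Whether different sequences were recovered alike was not tested, so the order between members describes reads. In WT neurons the 4 abundant members, between 2597 ± 706.5 CPM (miR-93-5p) and 3582 ± 1138 CPM (miR-20a-5p), had libraries that overlapped with those of their neighbours in that order. In TgAD neurons miR-93-5p was the highest at 2990 ± 12.9 CPM, followed by miR-20a-5p at 2654 ± 293.6 CPM and miR-17-5p at 2240 ± 338 CPM, and miR-106b-5p was the lowest of the 4 at 940.1 ± 249 CPM (SD over n = 2). The libraries of miR-20a-5p and miR-17-5p overlapped in TgAD neurons, whereas both libraries of miR-106b-5p were under all those of the other 3. Within each WT library miR-106b-5p and miR-20a-5p had the most reads of the family, and within each TgAD library miR-93-5p had the most and miR-106b-5p the fewest of the abundant members.

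Ratios within a library, which need no scaling between libraries, gave the same picture. The ratio of miR-106b-5p to miR-93-5p reads, both from the Mcm7 locus, was 1.47 and 1.29 in WT against 0.375 and 0.255 in TgAD libraries. The ratio of miR-93-5p to miR-17-5p was 0.986 and 0.956 against 1.20 and 1.499. That of miR-20a-5p to miR-17-5p, both from Mir17hg, moved least, from 1.31 and 1.35 in WT to 1.15 and 1.22 in TgAD libraries.

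Summed over the family, the reads were 23729 and 42826 (WT) against 25925 and 33047 (TgAD). They made up 1.15% (95% Wilson interval 1.13 to 1.16) and 1.56% (1.54 to 1.57) of the miRNA reads in WT, and 0.940% (0.928 to 0.951) and 0.687% (0.680 to 0.694) in TgAD libraries. Scaled to CPM, the sum was 10099 and 14709 (WT) against 9448 and 8218 (TgAD), a log2 ratio of the means of -0.49, and without WT replicate 2 it was -0.21. Of the difference between the mean sums, 72.7% came from miR-106b-5p. The other members together were at 8869 ± 2629 CPM (WT) against 7893 ± 621 CPM (TgAD, SD over n = 2 per genotype), a difference smaller than the spread between WT libraries. The share of miR-106b-5p in the family's reads was 30.6% and 27.1% (WT) against 11.8% and 9.30% (TgAD), and that of miR-93-5p was 20.8% and 21.1% against 31.5% and 36.5%.

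Each hairpin gives a 5p and a 3p product, of which 1 is usually retained in the Argonaute protein, and the opposite arms showed which part of each hairpin's output differed. The hairpin of miR-106b is shown because the shares of its arms differed between the genotypes, with the 5p arm (first) and the 3p arm (second) in capitals.
Mir106b: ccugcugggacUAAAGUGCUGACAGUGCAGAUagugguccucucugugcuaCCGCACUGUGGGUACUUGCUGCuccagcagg
The reads of miR-106b-3p were 1850 and 2156 (WT) against 2018 and 4446 (TgAD), or 787.4 and 740.5 CPM against 735 and 1106 CPM. The genotypes overlapped, and the log2 fold change was 0.27 (95% interval -0.31 to 0.85, adjusted p = 0.455), which turned to -0.025 without TgAD replicate 2, to -0.018 when libraries were scaled by total counts and to -0.039 after GC correction. The 5p arm made up 79.7% and 84.3% of the hairpin's reads in WT and 60.3% and 40.9% in TgAD libraries, so that in TgAD replicate 2 the 3p arm was the more abundant. The change of the ratio of 5p to 3p reads was tested with an arm by genotype term over the 138 hairpins with both arms tested, a test chosen after these values were seen. The ratio of miR-106b fell by 2.17 on the log2 scale (standard error 0.395), with an adjusted p = 0.00978. Over all these hairpins the ratio differed in 40.6%, with a lower ratio in TgAD neurons in 23.9%, and 4 hairpins had a larger fall than miR-106b. With the normalized table by its column names the change was -1.97 (adjusted p = 0.325), where 0 of the 138 hairpins passed and 13 had an unadjusted p under 0.05 in edgeR.

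For the other abundant hairpins the 5p arm took nearly all reads in every library. miR-20a-3p, at 85 and 129 (WT) against 49 and 47 (TgAD) reads, fell from 40.2 ± 5.75 to 14.8 ± 4.36 CPM (SD over n = 2 per genotype), by 1.46 on the log2 scale (standard error 0.317, adjusted p = 0.0266). Both TgAD libraries were again under both WT libraries. The 5p share of miR-20a was 98.7% and 99.0% in WT and 99.4% and 99.5% in TgAD libraries, and its ratio of 5p to 3p reads rose by 1.06 on the log2 scale (standard error 0.294, adjusted p = 0.0366), a call lost without WT replicate 1 (0.88, adjusted p = 0.187). In miR-20a it was thus the rare arm that changed, and in miR-106b the abundant one. The ratio did not pass the test for miR-17 (-0.18, adjusted p = 0.711), with a 5p share between 94.7% and 97.1%, nor for miR-93 (-0.25, adjusted p = 0.523), with a 5p share between 98.5% and 99.0%. The log2 fold change of miR-17-3p was -0.043 (adjusted p = 0.925) and that of miR-93-3p was 0.48 (adjusted p = 0.217). miR-20b-3p and miR-106a-3p had 0 reads in all libraries.

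**Figure D2:**
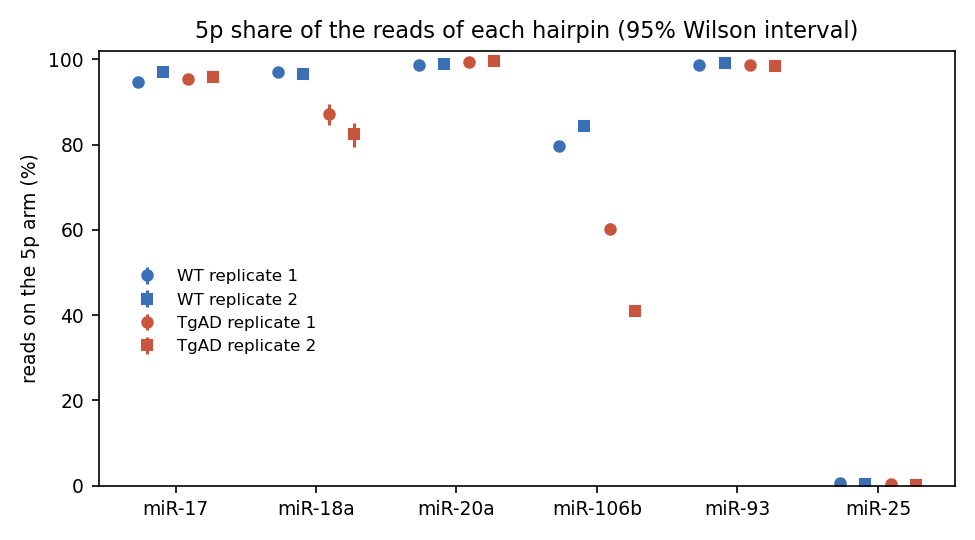
Share of the reads of each hairpin that lay on the 5p arm, in percent, in each library (blue WT, red TgAD, circle replicate 1, square replicate 2), with the 95% Wilson interval for counting error. The share of miR-106b falls from 79.7% and 84.3% in WT to 60.3% and 40.9% in TgAD libraries. That of miR-18a falls from 97.1% and 96.6% in WT to 87.2% and 82.4% in TgAD libraries. The share of miR-25, the cluster neighbour of miR-106b, stays under 1%, and those of miR-17, miR-20a and miR-93 stay over 94%.

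The cluster mates, miRNA of other seeds that are cut from the same transcripts, did not all move in 1 direction. Of 16 listed, 14 had reads and 11 could be tested, and 4 passed the cutoffs, 2 lower and 2 higher, near the 33.1% of all tested miRNA, with a median log2 fold change of -0.38 over the 11. Without TgAD replicate 1 the 4 that passed were all lower, and without either WT library 2 passed, both lower. From Mir17hg, miR-18a-5p fell by 1.26 on the log2 scale (standard error 0.286, adjusted p = 0.0276), its reads going from 1089 and 1251 to 647 and 556. Its opposite arm miR-18a-3p rose by 1.13 (standard error 0.272, adjusted p = 0.0308), its reads going from 33 and 44 to 95 and 119, and lost this call without WT replicate 1, WT replicate 2 or TgAD replicate 1. The arms of miR-18a thus moved in opposite directions, whereas of the arms of miR-106b only the 5p arm passed the cutoffs. The 5p to 3p ratio of miR-18a changed by -2.44 (standard error 0.385, adjusted p = 0.00782). The other mates past the cutoffs are each made from 2 loci, on chromosomes 14 and X. miR-19b-3p fell by 1.52 (45, 52, 23 and 19 reads, adjusted p = 0.0336, 0.111 without TgAD replicate 2). miR-92a-3p rose by 0.61 (5328, 6541, 9432 and 13809 reads, adjusted p = 0.0530), just past the cutoff, and did not pass it with total counts, GC correction, DESeq2, either alternative filter, or without any 1 of 3 libraries.

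**Figure D3:**
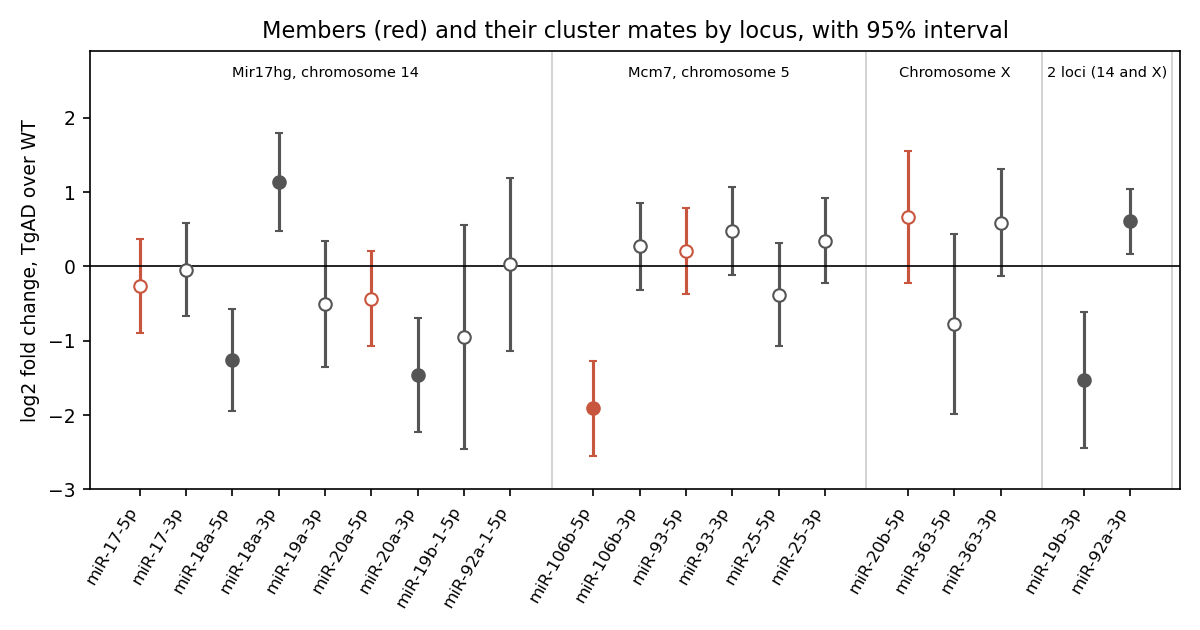
Log2 fold change of TgAD over WT with its 95% interval for the members (red), their opposite arms and their cluster mates (grey), grouped by locus, with a filled point where the cutoffs were passed. miR-106b-5p stands at -1.91 beside neighbours between -0.38 and 0.48 at the Mcm7 locus.

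At the Mcm7 locus, miR-106b-5p fell while the abundant arms of its neighbours did not pass the test. miR-25-3p, the main product of miR-25, a regulator of Bcl2l11 in other cells, was read 6970 and 10611 times in WT and 9717 and 19545 times in TgAD neurons, with a log2 fold change of 0.35 (95% interval -0.23 to 0.92, adjusted p = 0.340). The ratio of miR-106b-5p to miR-25-3p reads was 1.04 and 1.09 (WT) against 0.315 and 0.157 (TgAD). The 5p share of miR-25 was under 1% in all 4 libraries, and its ratio of 5p to 3p reads did not pass the test (-0.72, adjusted p = 0.129), although it did without TgAD replicate 1 (-0.97, adjusted p = 0.0300).

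Other miRNA known to act on G1-S regulators were compared from a list of 25 that included the miR-15, miR-34, let-7, miR-221 and miR-29 families. The list was drawn up with earlier results of these data known, so its share past the cutoffs is a description. Over all tested miRNA 33.1% passed in either direction, 17.3% in the lower direction. Of the 25 listed, 23 had reads and 21 could be tested, and 7 passed the cutoffs, all of them lower in TgAD neurons. These were miR-15a-5p (-2.32), miR-16-5p (-1.80), miR-195a-5p (-1.28) and miR-497a-5p (-1.04), which share a seed and repress cyclin D1 and cyclin E1, miR-34c-5p (-1.49) and miR-449a-5p (-1.13), which share a seed and repress Cdk6 and cyclin D1, and miR-29c-3p (-2.19), whose family represses Cdk6. miR-16-5p is made from 2 loci. The adjusted p values of the 7 were between 0.00934 and 0.0267, and miR-449a-5p lost its call without WT replicate 1 (adjusted p = 0.114). The other 14 did not pass, the highest at 0.46, and the median of the 21 was -0.42. The list thus held members of both kinds, as did the miR-17 family. With the total counts as library size 12 of the list passed, all lower. GC correction covered 20 of the list, without miR-34c-5p, whose sequence was not available, and gave 6 lower and 1 higher. The 6 lower were the rest of the 7 named above.

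The related miRNA of pluripotent cells, from the miR-290 to miR-295 and miR-302 clusters, whose seeds hold part of the same sequence, were near absent, as was miR-6383. Of these 11 miRNA, 7 were at 0 in every library and none had enough reads to be tested. The highest count was 11 reads, of miR-302d-3p in WT replicate 2.

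The composition of the members was set beside the changes, because fold changes over all miRNA moved with GC content. Over the 441 tested miRNA with a sequence (88.9%), the log2 fold change and the GC content of the mature miRNA had a Spearman correlation of 0.42, given as a description over miRNA of the same 4 libraries. The median log2 fold change was -0.76 for miRNA under 40% GC, -0.40 from 40% to 45%, 0.023 from 45% to 50%, 0.36 from 50% to 55% and 0.25 above. Among the members, miR-20a-5p had 39.1% GC, miR-106b-5p 42.9%, miR-17-5p and miR-20b-5p 47.8% each and miR-93-5p 52.2%. miR-20a-5p was above the median of its class and miR-106b-5p was well under that of its class. With each library corrected for GC content, miR-106b-5p was at -1.64 (adjusted p = 0.00589) and stayed past the cutoffs, while miR-20a-5p turned from -0.43 to 0.063. The arms of miR-106b also differed in GC content, 42.9% in the 5p and 63.6% in the 3p arm. Over 119 hairpins with both sequences, the GC difference between the arms and the change of the arm ratio had a Spearman correlation of 0.35. The part of GC content in the change of the arm ratio was not tested.

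**Figure D4:**
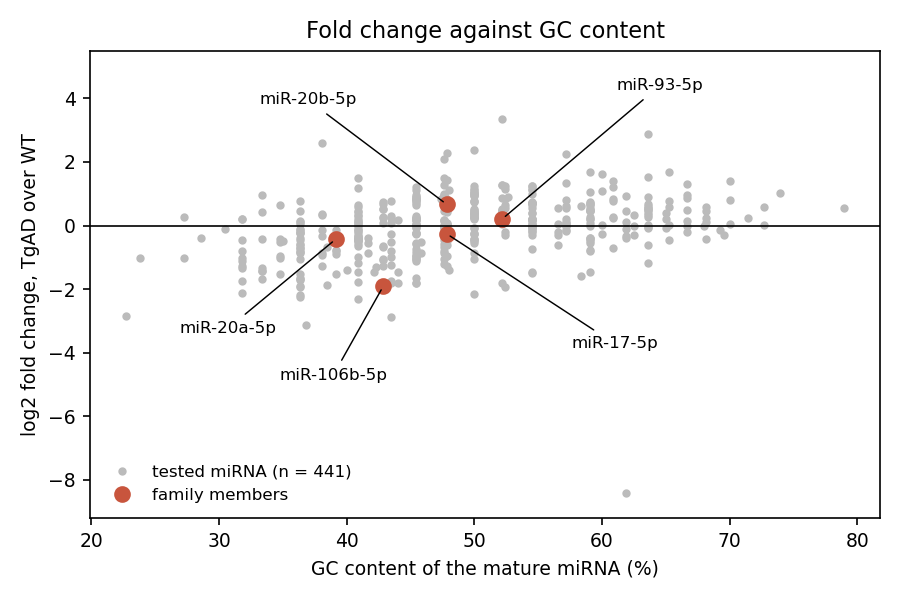
Log2 fold change of TgAD over WT against the GC content of the mature miRNA in percent, with the 441 tested miRNA with a sequence in grey and the 5 tested members in red. miR-106b-5p (42.9% GC, -1.91) lies in the lower part of the cloud at its GC content, and the grey point near -8 is a miRNA with 0 reads in both TgAD libraries, whose fitted value is no bound.

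The first base, which the Argonaute protein contacts, also differed between the members. miR-20a-5p and miR-106b-5p begin with U and the other 4 with C. Over the 441 tested miRNA with a sequence the median log2 fold change was 0.055 for those that begin with U and 0.033 for those that begin with C. The members that begin with U had log2 fold changes of -0.43 and -1.91, and the tested members that begin with C lay between -0.26 and 0.67. This order did not hold with GC correction, where miR-20a-5p was at 0.063, above miR-17-5p (-0.37) and miR-93-5p (-0.15).

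The miRNA whose profile over the 4 libraries was nearest to that of the summed family, by the root mean square distance of centred log2 CPM over 491 tested miRNA, was miR-21a-5p, at a distance of 0.056 against a median of 0.49. The next were miR-501-5p (0.127), miR-671-5p (0.131), miR-1983 (0.134) and miR-488-3p (0.136). Over only 4 libraries such likeness is a description. The mean level of miR-21a-5p, an abundant miRNA of glia and proliferating cells, was 19859 CPM (WT) against 14421 CPM (TgAD), with a log2 fold change of -0.46 that did not pass the test (adjusted p = 0.203).

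**Figure D5:**
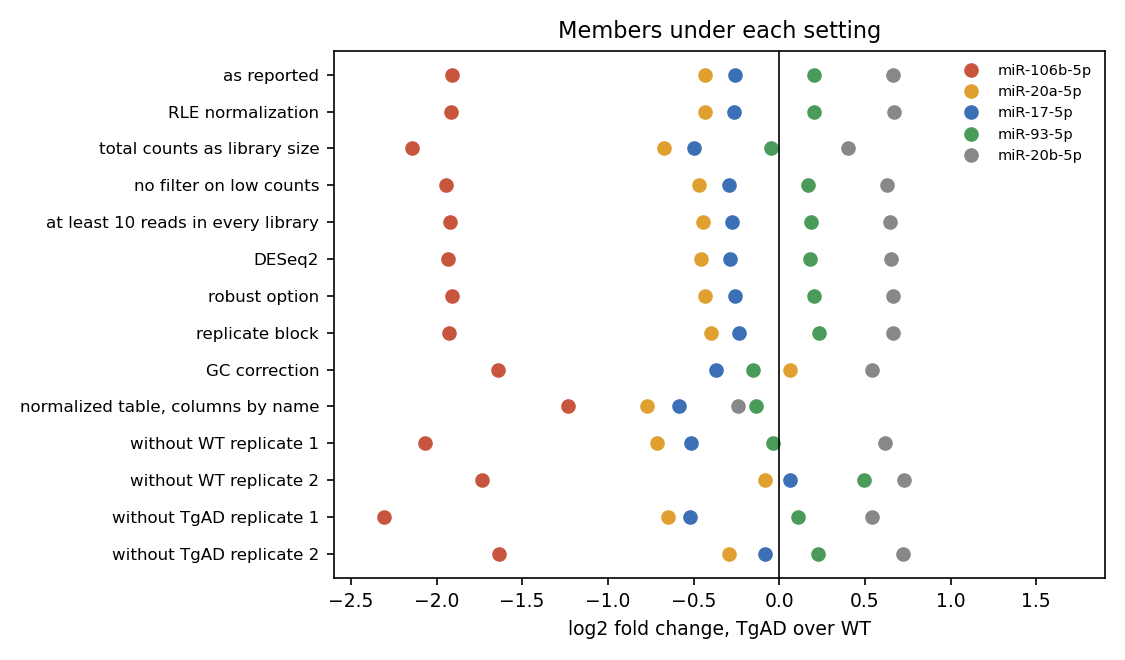
Log2 fold change of TgAD over WT of the 5 tested members under each setting of the analysis, 1 row per setting and 1 colour per member. miR-106b-5p stays between -2.31 and -1.23 under every setting shown, and miR-17-5p, miR-20a-5p, miR-20b-5p and miR-93-5p each cross 0 under at least 1.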

How the data were processed

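Small RNA of cortical neurons was sequenced in 4 libraries, 2 WT and 2 TgAD, grouped by their sample labels. The authors deposited counts per mature miRNA for each library, made from adapter-trimmed 50 bp reads mapped to GRCm38 (GRCm38.p6 in the labels) with Bowtie2 without mismatch and counted with HTSeq-count on miRBase 22.1, without normalization. How reads with several placements were counted is not given in the sources used here. The authors also deposited a normalized table, a signal (counts over each library's size factor) for 674 miRNA. Of its values 100% were whole multiples of 1 read (tolerance 0.01), and these recovered reads were used for 1 alternative, since its columns conflict with the labels. Its column of no matching count table was used only there and under other observations.

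Counts were analyzed with edgeR 4.0.16 and limma 3.58.1 in R 4.3.3, with TMM normalization, filterByExpr and the quasi-likelihood test with genotype as the only factor, adjusted by the Benjamini-Hochberg method over 496 miRNA. Depth was 2070204 to 4811010 reads. Alternatives were RLE, total counts, no filter, 10 reads in every library, DESeq2 1.42.0, the robust option, a replicate block, a GC correction by loess (span 0.75, prior count 2), the normalized table, and leaving out each library. The arm test (edgeR, library as a block) was added after the data were seen. Fits were tested on simulated data. Sequences are from RefSeq, matched for 1675 of 1966 names, and loci from GENCODE M21. Figures were drawn with Python 3.11.15 and matplotlib 3.10.9.

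All members and opposite arms were named, of the cluster mates and the G1-S list those past the cutoffs, and the 5 nearest profiles. miR-25-3p, the marker miRNA and the arm ratios of miR-18a and miR-25 are named beyond this rule, chosen after their values were seen. Members and lists were chosen with earlier results of these data known.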

Additional observations from a re-analysis of the deposited data

How the results depend on the processing

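With 2 libraries per genotype, a fit without 1 library assumes that the lone library varies like the other genotype. Leaving out each library in turn gave 1 member past the cutoffs each time, 2 to 4 cluster mates, 6 to 11 of the G1-S list, 118 to 143 of all tested miRNA (164 with all libraries) and 35 to 54 hairpins with a changed arm ratio (56 with all). In the same fits the log2 fold change was -0.52 to 0.060 for miR-17-5p, -0.71 to -0.080 for miR-20a-5p, 0.54 to 0.73 for miR-20b-5p, -0.036 to 0.50 for miR-93-5p and -2.31 to -1.63 for miR-106b-5p. It was -0.39 to 0.21 for miR-17-3p, positive without WT replicate 1 (0.13) and without TgAD replicate 2 (0.21), and -0.025 to 0.44 for miR-106b-3p. The change of the arm ratio was -0.64 to 0.27 for miR-17, 0.87 to 1.25 for miR-20a, -0.52 to 0.028 for miR-93 and -2.73 to -1.60 for miR-106b. Total counts as library size gave 2 members, 12 of the G1-S list and 165 of all tested miRNA past the cutoffs, split into 122 lower and 43 higher against 86 and 78 with TMM, and values of -0.67 for miR-20a-5p, -0.048 for miR-93-5p and -0.018 for miR-106b-3p. GC correction gave 0.063 for miR-20a-5p, -0.15 for miR-93-5p and -0.039 for miR-106b-3p. The reads recovered from the normalized table, by column name, gave 0 members, 0 cluster mates, 0 of the G1-S list, 0 of all tested miRNA and 0 hairpins past the cutoffs in edgeR, while DESeq2 called 4 of the 674 miRNA, none a member, and 61 had an unadjusted p under 0.05. Its values were -0.24 for miR-20b-5p, -0.14 for miR-93-5p, -1.23 for miR-106b-5p, and for the arm ratio 0.17 for miR-17, 0.51 for miR-20a and -1.97 for miR-106b. That table places the counts of TgAD replicate 1 under a WT name, and no column of it holds those of WT replicate 2. Replicate numbers come from separate embryos, and the labels state no pairing of WT with TgAD libraries. The correlation of deviations between same-numbered libraries was 0.216, and the replicate block gave 188 calls and -1.93 for miR-106b-5p. The causes of these shifts were not tested. Depth limits miR-20b-5p and miR-106a-5p, at 2 to 31 reads per library.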

Other observations

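The normalized table held a column, TR_2, that was equal to the counts of none of the 4 libraries, with 12 to 30 of 674 miRNA equal and 1926952 recovered reads. Because no sample label could be matched to it, its values are given without a group. In it miR-17-5p had 1432, miR-20a-5p 1145, miR-93-5p 2159, miR-106b-5p 1370, miR-20b-5p 3 and miR-106a-5p 1 recovered reads. On the authors' normalized scale miR-106b-5p was at 2472 in this column, beside 2671 in the column that holds the counts of TgAD replicate 1, 1822 in that of TgAD replicate 2 and 7611 in that of WT replicate 1. miR-93-5p was at 3896, beside 7132, 7151 and 5165 in the same order.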
